A study of Mus musculus with 59 samples.

Results

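Egr1, Ier5l, Arl4d and Gadd45b are 4 activity-inducible genes that were measured by RNA sequencing in the medial prefrontal cortex of mice around the day. They are 4 of the 4484 genes in the deposited table, and all 4 were among the 4273 genes with enough reads to test. They were chosen by their log2 levels across the times of day in these libraries, which were higher in the dark phase, so their levels by time, their fitted amplitudes and their dark minus light differences are a description and carry no test. The tissue was homogenate from adult wild-type C57BL/6J mice, killed every 4 h from zeitgeber time ZT2 through ZT6, ZT10, ZT14 and ZT18 to ZT22, and the labels name no treatment or altered allele in any group. Zeitgeber time counts hours from lights on by convention. ZT14, ZT18 and ZT22 are called the dark phase here and ZT2, ZT6 and ZT10 the light phase, although the labels do not state the light schedule. There were 30 dark-phase and 29 light-phase libraries, or 30 male and 29 female ones. Each of the 12 groups of time and sex held 5 libraries except ZT10 female, which held 4. The labels number the animals within a group and repeat some numbers, and they do not say whether every library is a separate animal, so a p-value here speaks only of the spread among libraries.

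Inducible genes are transcribed within minutes of a stimulus, such as synaptic activity or a growth factor, without new protein synthesis. Calcium and kinase signals reach factors that already sit on their promoters, among them CREB, which binds cAMP response elements, and SRF, which binds CArG boxes. The first products are often transcription factors themselves, while others act at synapses, in signalling or on chromatin. In rodent cortex such genes are widely used as markers of recent neuronal activity, and mice are active mostly at night.

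The 4 genes act at different steps. Egr1 encodes a zinc-finger transcription factor, also called Zif268, that binds GC-rich sites and is used as a marker of synaptic plasticity. Ier5l encodes a nuclear protein related to the immediate early response protein IER5, and its function is little known. Arl4d encodes a small GTPase of the ADP-ribosylation factor family that recruits cytohesins, the activators of ARF6, to the plasma membrane. Gadd45b encodes a stress-inducible protein that binds MAP kinase kinases and has been linked to activity-dependent DNA demethylation in mouse neurons.

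On GRCm38, with GENCODE gene models, Ier5l (ENSMUSG00000089762) lies at chr2:30471537-30474219 on the minus strand in 1 exon. Arl4d (ENSMUSG00000034936) lies at chr11:101665541-101667832 on the plus strand in 2 exons. Gadd45b (ENSMUSG00000015312) lies at chr10:80930073-80932204 on the plus strand in 3 exons. No exon of the 4 genes overlapped an exon of another gene on either strand.

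The promoters of 3 of the 4 genes had an entry in RefSeq's table for GRCm38.p6 and are shown because the genes share a time of day. Each run holds the bases upstream of the annotated gene, 5′ to 3′ on the gene's own strand, with the motifs found in capitals. Ier5l's is chr2:30474220-30474449 (minus), Arl4d's is chr11:101665291-101665540 (plus) and Gadd45b's is chr10:80929841-80930072 (plus).
Ier5l: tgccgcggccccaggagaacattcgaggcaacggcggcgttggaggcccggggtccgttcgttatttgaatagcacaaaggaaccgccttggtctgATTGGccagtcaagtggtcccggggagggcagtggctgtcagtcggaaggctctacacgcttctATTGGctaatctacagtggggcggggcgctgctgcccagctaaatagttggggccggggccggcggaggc
Arl4d: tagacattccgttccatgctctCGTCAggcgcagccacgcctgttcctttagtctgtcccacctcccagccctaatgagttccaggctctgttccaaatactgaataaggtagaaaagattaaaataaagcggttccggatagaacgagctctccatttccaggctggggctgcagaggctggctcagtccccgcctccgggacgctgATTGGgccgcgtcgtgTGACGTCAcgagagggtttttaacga
Gadd45b: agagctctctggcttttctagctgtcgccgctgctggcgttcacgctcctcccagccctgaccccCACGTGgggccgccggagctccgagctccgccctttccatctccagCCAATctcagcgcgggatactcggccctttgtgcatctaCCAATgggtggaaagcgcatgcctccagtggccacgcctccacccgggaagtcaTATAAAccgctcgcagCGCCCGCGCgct

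The motifs were searched on both strands in the 250 bases before the RefSeq start, and positions count back from that start. Arl4d's promoter held the full cAMP response element TGACGTCA at -26 to -19, which itself contains the shorter core TGACG on each strand. A further core, read as CGTCA on the printed strand, lay at -228 to -224. The full element is in 1.55% of all 32851 mouse promoters in the table and in 2.71% of the 4170 promoters of tested genes, and the core is in 17.8% and 27.7%. Gadd45b's promoter held an E-box, CACGTG, at -185 to -180 (6.02% of all promoters, 7.99% of those of tested genes), a TATA box, TATAAA, at -46 to -41 (12.4% and 6.28%) and an EGR site, GCGNGGGCG, at -30 to -22 on the other strand (4.70% and 9.47%). All 3 promoters held at least 1 CCAAT box, CCAAT or its reverse complement ATTGG, which is in 33.8% of all promoters and 34.1% of those of tested genes. None of these windows held a CArG box (1.47% and 1.15%). A match describes the letters and is not evidence of binding.

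The libraries held 6317420 to 13325019 reads over the genes of the table, with a median of 9015221. Noncoding RNAs took much of that depth: the 6 most abundant noncoding genes held 61.4% to 91.2% of the reads, which left 1009789 to 4253935 reads for all other genes. The glutamatergic neuron markers Slc17a7, Cux2, Fezf2 and Bcl11b were expressed, with mean log2 values of 14.86, 9.63, 9.74 and 9.92 in that order. Of 71 listed cell type markers 22 could be tested. limma with Benjamini-Hochberg adjustment called 0 of them for a 24 h rhythm, with 4 at an unadjusted p under 0.05, and 0 for sex. Over all 4273 genes it called 81 for rhythm (1.90%), with 486 at an unadjusted p under 0.05, and 1 for sex (0.0234%). limma voom called 0 markers for either. The libraries with serial numbers 49 to 60 stood apart on the first principal component of all tested genes, with scores of 20.9 ± 6.61 (SD, n = 11) against -4.79 ± 13.9 (SD, n = 48) for numbers 1 to 48. Values without them are given beside the results they bear on.

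All levels are log2 of a scaled read count plus 1, as deposited. In bulk tissue, a lower level from fewer cells of a type and from less RNA per cell cannot be told apart. Egr1 was the most abundant of the 4 per length, with a mean scaled count of 419 per kilobase of exon, against 156 for Ier5l, 87.3 for Arl4d and 71.9 for Gadd45b. Egr1 had a median of 499 reads per library and up to 2502, and Ier5l had 63 to 436. Arl4d had a median of only 38 reads, with a minimum of 7, and Gadd45b a median of 33, with a minimum of 6, so their counting error was larger. At ZT14 the counting SD on the log2 scale was 0.21 for Arl4d and 0.23 for Gadd45b, against 0.07 for Egr1 and 0.11 for Ier5l. It was not always a larger part of the spread, since the SD over libraries there was 0.66 for Gadd45b and 0.20 for Ier5l. No gene was at 0 in any library.

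Egr1 (ENSMUSG00000038418) lies at chr18:34859823-34864984 on the plus strand of GRCm38, in 2 exons, and was highest at ZT18. Its lowest, median and highest log2 levels were 9.85, 10.68 and 11.64 at ZT2, 9.65, 10.33 and 11.35 at ZT6, and 9.54, 10.40 and 11.16 at ZT10. They were 10.16, 10.59 and 11.89 at ZT14, 10.63, 11.53 and 11.80 at ZT18, and 10.15, 10.82 and 11.79 at ZT22. The libraries of every time overlapped those of every other: 7 of the 10 ZT18 libraries lay above all 9 ZT10 libraries, and the mean was 11.33 ± 0.41 at ZT18 against 10.38 ± 0.57 at ZT10 (SD, n = 10 and 9), a 1.93-fold difference. At ZT14, the first dark-phase time, the mean of Egr1 was 10.70. That lay beside the 10.71 of ZT2 and above the 10.45 of ZT6 and the 10.38 of ZT10. In the order of means ZT10, ZT6, ZT14, ZT2, ZT22, ZT18, no neighbours differed by more than their pooled SD. Over both phases, the lowest, median and highest levels were 10.15, 10.90 and 11.89 in the dark, against 9.54, 10.52 and 11.64 in the light. Of 30 dark-phase libraries 24 exceeded the light-phase median.

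Ier5l had the cleanest separation and was highest at ZT14. Its lowest, median and highest log2 levels were 8.05, 8.24 and 8.84 at ZT2, 7.88, 8.24 and 8.70 at ZT6, and 7.89, 8.36 and 8.91 at ZT10. They were 8.96, 9.22 and 9.61 at ZT14, 7.83, 8.89 and 9.12 at ZT18, and 8.36, 8.71 and 9.27 at ZT22. All 10 ZT14 libraries lay above all 29 light-phase libraries, a pattern that this gene alone of the 4273 tested showed (0.0234%). The mean was 9.24 ± 0.20 at ZT14 against 8.28 ± 0.30 at ZT6 (SD, n = 10 each), a 1.94-fold difference, and all ZT14 libraries lay above all ZT6 ones, which 5 of the 4273 genes showed (0.117%), the others being Arc, Junb, Hes6 and Banp. The light-phase means lay close together, at 8.32 (ZT2), 8.28 (ZT6) and 8.39 (ZT10). In the order ZT6, ZT2, ZT10, ZT22, ZT18, ZT14, the steps from ZT10 to ZT22 and from ZT18 to ZT14 exceeded the pooled SD and the other steps did not. Of 30 dark-phase libraries 29 exceeded the light-phase median, and the exception was 1 ZT18 male library at 7.83, the lowest Ier5l value in the study.

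Arl4d was higher at each dark-phase time and differed little between those times. Its lowest, median and highest log2 levels were 5.12, 6.53 and 7.15 at ZT2, 5.53, 6.33 and 7.02 at ZT6, and 5.48, 6.68 and 7.72 at ZT10. They were 6.65, 7.28 and 7.89 at ZT14, 6.54, 7.08 and 7.59 at ZT18, and 6.79, 7.18 and 7.40 at ZT22. Every one of the 30 dark-phase libraries lay above the light-phase median of 6.51, which held for 4 of the 4273 tested genes (0.0936%); the others were Arc, Per2 and Per3. The mean was 7.30 ± 0.41 at ZT14 against 6.28 ± 0.46 at ZT6 (SD, n = 10 each), a 2.03-fold difference, and 8 of the 10 ZT14 libraries exceeded all ZT6 ones. In the order ZT6, ZT2, ZT10, ZT18, ZT22, ZT14, no neighbours differed by more than their pooled SD. The spread also differed by phase: the SD over libraries was 0.34 in the dark (n = 30) and 0.63 in the light (n = 29). At ZT22 the SD of 0.21 was about that of read counting alone, 0.23, while at ZT2 it was 0.72 against a counting SD of 0.30.

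Gadd45b was highest at ZT14 and had the largest residual SD of the 4 about a fitted 24 h cosine, 0.61. Its lowest, median and highest log2 levels were 5.54, 6.34 and 6.91 at ZT2, 4.49, 6.53 and 7.23 at ZT6, and 6.17, 6.68 and 7.50 at ZT10. They were 6.20, 7.41 and 8.12 at ZT14, 5.85, 7.05 and 7.63 at ZT18, and 4.70, 6.65 and 7.36 at ZT22. The ZT10 mean of 6.82, in the light phase, was above the ZT22 mean of 6.50, so its means did not fall in order of phase as Arl4d's did. This gap of 0.32 was within the pooled SD of 0.66. Arl4d's gap between ZT10 and ZT18, 0.32, was also within its pooled SD of 0.53. The mean was 7.26 ± 0.66 at ZT14 against 6.27 ± 0.77 at ZT6 (SD, n = 10 each), a 2.0-fold difference, and 7 of the 10 ZT14 libraries lay above all ZT6 libraries. In the order ZT6, ZT2, ZT22, ZT10, ZT18, ZT14, no neighbours differed by more than their pooled SD. Of 30 dark-phase libraries 22 exceeded the light-phase median.

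**Figure D1:**
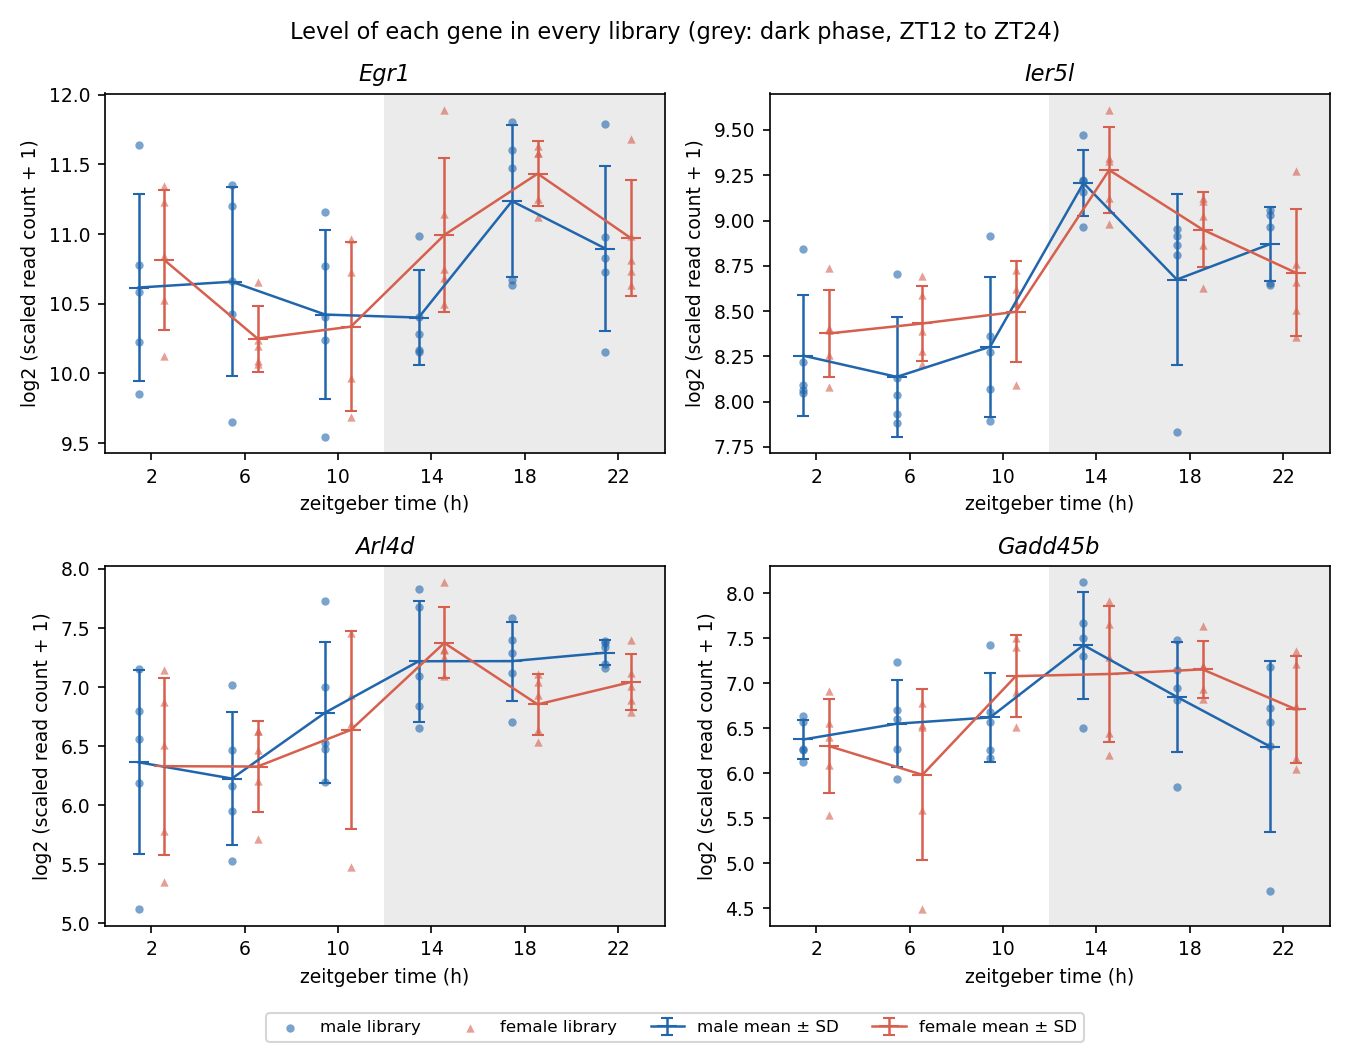
Log2 level of each gene in every library against zeitgeber time in hours; points are male libraries and triangles female ones, shifted sideways for legibility, and lines join the group means ± SD (4 or 5 libraries). Ier5l at ZT14 lies clear of every light-phase library, Arl4d stays high through the dark phase, Gadd45b peaks at ZT14 and Egr1 at ZT18.

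A 24 h cosine was fitted to each gene with limma, and its amplitude is the log2 difference between the fitted maximum and the mean. Over all genes tested, the fit called 81 of 4273 genes rhythmic (1.90%), 60 of them with a peak between ZT12 and ZT24 (1.40%). This contrast chose the 4 genes, so their own p-values are not given. The fitted amplitude of Egr1 was 0.41 ± 0.09 (SE) with a peak at ZT19.5. That of Ier5l was 0.42 ± 0.06 at ZT16.5 and that of Arl4d 0.51 ± 0.09 at ZT16.9. Gadd45b had an amplitude of 0.50 ± 0.11 and the earliest peak, at ZT14.9. From trough to peak these are 1.77-fold, 1.80-fold, 2.02-fold and 2.0-fold in the order of the 4 genes above, while the median amplitude was 0.0762 over all tested genes and 0.217 over the called ones. The spread of single libraries about the fit was as large as the amplitude for most of them: the residual SD was 0.52 for Egr1, 0.33 for Ier5l, 0.51 for Arl4d and 0.61 for Gadd45b, against a median of 0.35 over all genes. Without the libraries numbered 49 to 60 the amplitudes were 0.41, 0.44, 0.53 and 0.51, and the peaks ZT19.3, ZT16.5, ZT16.8 and ZT15.2.

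**Figure D2:**
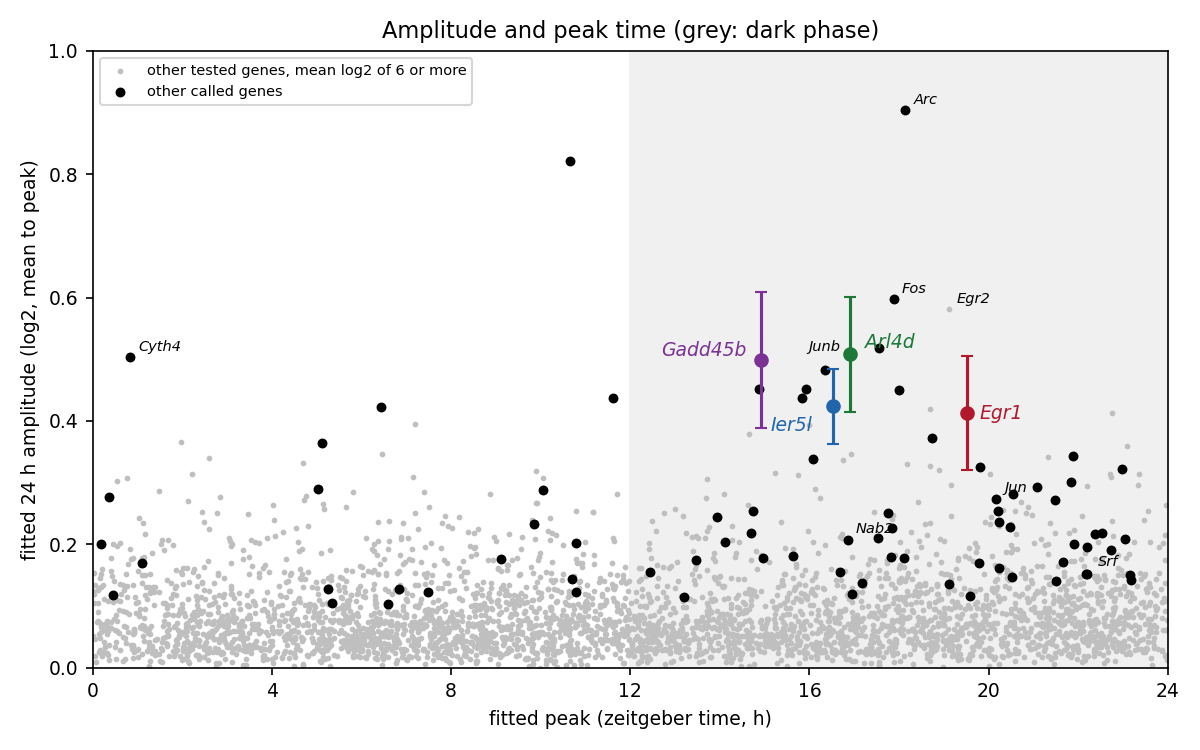
Fitted 24 h amplitude (log2, mean to peak) against fitted peak time in hours; coloured points with SE bars are the 4 genes, black points the other genes called rhythmic, and grey points the uncalled genes with a mean log2 level of at least 6. Egr1 sits later than the other 3, at ZT19.5, and Arc has the highest amplitude drawn, 0.90.

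Equal weighting of the 3 times in each phase gave a dark minus light difference of 0.47 ± 0.13 (SE) for Egr1, 0.62 ± 0.08 for Ier5l, 0.72 ± 0.13 for Arl4d and 0.44 ± 0.16 for Gadd45b. Over all genes, 23 of 4273 were called higher in the dark phase (0.538%) and 7 lower (0.164%). The serial numbers fall into 5 runs of 12, each with 6 dark-phase libraries and 6 light-phase ones, 5 in the last run. Ier5l differed most evenly, by 0.49, 0.76, 0.55, 0.64 and 0.74 in the 5 runs in serial order. Arl4d differed by 0.95, 0.84, 0.94, 0.28 and 0.61. Egr1 differed by 0.29, 0.09, 0.72, 0.72 and 0.40, so its difference in the second run was small. Gadd45b differed by -0.04 in the first run, the only negative value of any gene and run, and by 0.51, 0.61, 0.79 and 0.40 in the others. The level of Egr1 itself moved with the run: it averaged 11.42 ± 0.38 (SD, n = 11) in the libraries numbered 49 to 60, against 10.74, 10.70, 10.49 and 10.50 in the first to the fourth run. Run means varied for the other genes too, from 6.28 to 6.99 for Gadd45b, 6.52 to 6.96 for Arl4d and 8.48 to 8.74 for Ier5l. With the run added to the fit, Egr1's dark minus light difference was 0.45 ± 0.10 (SE) in place of 0.47 ± 0.13. Its amplitude was then 0.40 ± 0.07 in place of 0.41 ± 0.09. The part of the libraries numbered 49 to 60 in its spread was not tested.

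**Figure D3:**
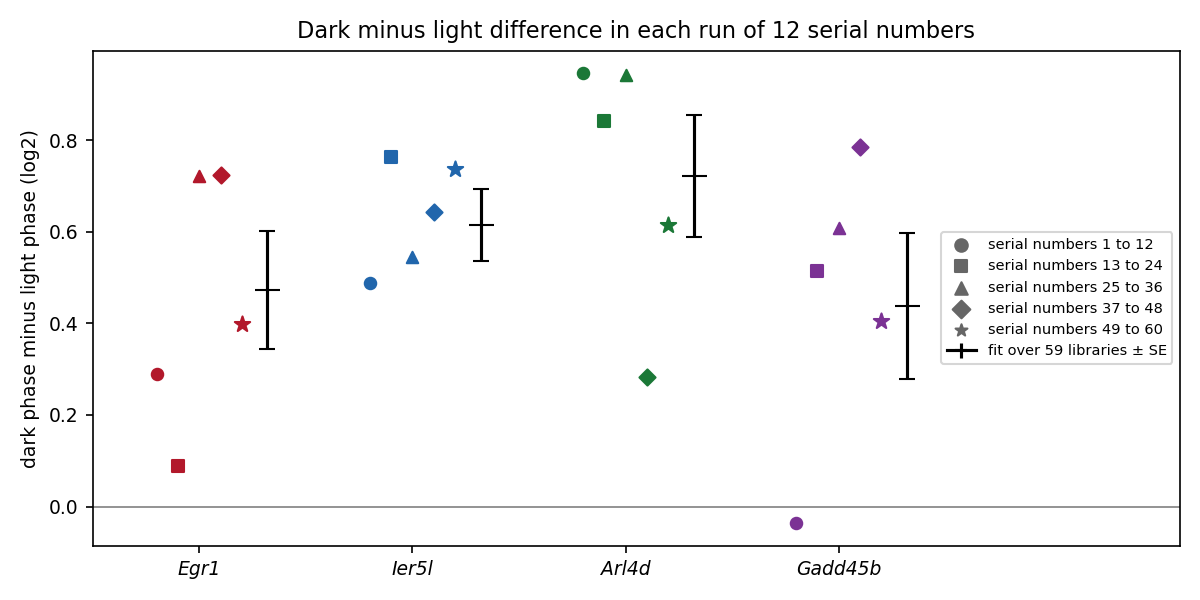
Dark phase minus light phase difference in mean log2 level for each gene, 1 symbol per run of 12 serial numbers, with the fit over all 59 libraries ± SE in black. Ier5l ranges from 0.49 to 0.76 over the runs, and Gadd45b is at -0.04 in the first run.

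Sex was not used to choose the genes, so it was tested. None of the 4 passed the test of males against females, with adjusted p = 0.999 for each in limma with Benjamini-Hochberg adjustment over 4273 genes. A single gene was called (0.0234%), the X-linked Ddx3x, with a male minus female difference of -0.30 on the log2 scale. The male minus female difference was -0.10 for Egr1 (95% interval -0.36 to 0.16) and -0.13 for Ier5l (-0.29 to 0.02). It was 0.09 for Arl4d (-0.17 to 0.35) and -0.03 for Gadd45b (-0.35 to 0.29). Without the libraries numbered 49 to 60 it was -0.16 for Egr1, -0.080 for Ier5l, 0.15 for Arl4d and -0.062 for Gadd45b (adjusted p = 0.997 each, limma). A sex difference of the size of these bounds is therefore not excluded by the spread of the libraries for any of the 4 genes.

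The daily course was compared between the sexes as well. In males the fitted amplitude of Egr1 was 0.31 ± 0.14 (SE) with a peak at ZT20.7, and in females it was 0.54 ± 0.11 at ZT18.9. Ier5l had 0.45 ± 0.10 at ZT17.0 in males and 0.41 ± 0.07 at ZT15.9 in females. Arl4d had 0.57 ± 0.13 at ZT17.3 in males and 0.46 ± 0.13 at ZT16.4 in females. These 3 genes had the earlier fitted peak in females, whereas Gadd45b had it in males, with 0.45 ± 0.15 at ZT13.9 in males and 0.57 ± 0.16 at ZT15.7 in females. None of these contrasts passed: the adjusted p of the sex by rhythm term was 0.746 for Egr1, 0.849 for Ier5l, 0.879 for Arl4d and 0.809 for Gadd45b in limma. Of 4273 genes limma called 0 for this term (0%), with 180 at an unadjusted p under 0.05, and limma voom on the recovered reads also called 0.

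The widest gap between the sexes was in Egr1's dark minus light difference, which was 0.28 in males and 0.67 in females. Their difference of -0.39 had a 95% interval of -0.90 to 0.13 and an adjusted p of 0.495 (limma). At ZT14, Egr1's lowest, median and highest levels were 10.16, 10.28 and 10.99 in the 5 males and 10.50, 10.75 and 11.89 in the 5 females, so the 2 sexes overlapped there. The difference between the sexes in the dark minus light value was 0.14 for Ier5l (-0.17 to 0.45, adjusted p = 0.652), 0.13 for Arl4d (-0.41 to 0.66, adjusted p = 0.820) and -0.19 for Gadd45b (-0.83 to 0.44, adjusted p = 0.766), all by limma. limma called 0 of 4273 genes for this difference (0%), with 374 at an unadjusted p under 0.05, and limma voom also called 0. Without the libraries numbered 49 to 60 it was -0.25 for Egr1 and 0.19 for Ier5l (adjusted p = 0.763 each, limma), 0.14 for Arl4d (adjusted p = 0.906) and -0.087 for Gadd45b (adjusted p = 0.953). When libraries were scaled by their totals alone, the median of all genes lay at -0.319. In that setting Egr1 had -0.75 (adjusted p = 0.310, limma), Gadd45b -0.40 (adjusted p = 0.365), Ier5l -0.22 (adjusted p = 0.515) and Arl4d -0.17 (adjusted p = 0.633), so Ier5l and Arl4d changed sign but lay above that median.

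A second rhythm of 12 h was added to describe the shape of the courses beyond 1 cosine. Its amplitude was 0.14 for Egr1, 0.14 for Ier5l, 0.17 for Arl4d and 0.10 for Gadd45b, beside a median of 0.0929 over all genes. The 4 genes were chosen by their levels across these times, so their own p-values are not given for this term. limma with Benjamini-Hochberg adjustment called 0 of 4273 genes for it (0%), with 291 at an unadjusted p under 0.05. limma voom also called 0.

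Once the group mean was removed, none of the 6 pairs of the 4 genes had a correlation that passed the test. Over the 48 libraries numbered 1 to 48, Pearson's r of the deviations was highest for Arl4d and Gadd45b, at 0.26 (permutation p = 0.0672, adjusted p = 0.403 over the 6 pairs), with Spearman's rho of 0.34 (adjusted p = 0.199). It was 0.21 for Ier5l and Arl4d (adjusted permutation p = 0.498) and 0.15 for Ier5l and Gadd45b (0.498). Egr1 had r of 0.05 with Ier5l (adjusted permutation p = 0.875), -0.21 with Arl4d (0.498) and -0.02 with Gadd45b (0.875). Spearman's rho was 0.06, -0.21 and -0.09 for the 3 pairs with Egr1, 0.22 for Ier5l and Arl4d, and 0.15 for Ier5l and Gadd45b, with adjusted permutation p-values from 0.199 to 0.718 over the 6 pairs. Without the 2 libraries farthest from the median on the x axis, r was 0.27 for Arl4d and Gadd45b and between -0.08 and 0.18 for the other 5 pairs. The scaling changed this result: with libraries scaled by their totals alone, r was 0.31 to 0.66 in all 6 pairs and passed in 5. With the run of serial numbers removed as well as the group mean, at the deposited scaling, r of Arl4d with Gadd45b was 0.10. The highest r was then 0.18, for Ier5l and Arl4d (adjusted permutation p = 0.564 for both pairs).

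Of the 4 genes, Egr1 had the strongest correlation with the main axis of variation of all tested genes. The first component of the deviations of all tested genes held 20.98% of their variance, and Egr1 correlated with it at r = 0.79 (rho 0.77; permutation p = 1e-05 for both, the smallest possible, adjusted p = 4e-05 over the 4 genes), or 0.74 without the 2 libraries farthest out. Of all tested genes 17.8% had a correlation at least as strong, and the median size was 0.458. Arl4d ran the other way, with r = -0.45 (rho -0.44; permutation p = 0.0118, adjusted p = 0.0236), or -0.35 without those 2 libraries; 51.1% of all tested genes had a correlation at least as strong. Its correlation ranged from -0.57 to -0.37 when single libraries were left out, and it missed the threshold without any 1 of ZT2 female replicate 1 (-0.37), ZT2 female replicate 4 (-0.38), ZT6 male replicate 4 (-0.40) or ZT10 male replicate 3 (-0.37). For Ier5l r was -0.07 (rho -0.11; adjusted permutation p = 0.698) and for Gadd45b -0.14 (rho -0.20; adjusted permutation p = 0.457). With scaling by library totals alone, the direction flipped for Arl4d, Ier5l and Gadd45b, and all 4 genes then had r of 0.55 to 0.83. Nearly all genes correlated positively with the component in that setting, 99.7% of 4273 with a median r of 0.80, against 47.3% and -0.048 with the deposited scaling. The flip, and the higher r between the 4 genes in that setting, are therefore no description of these 4 genes in particular.

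**Figure D4:**
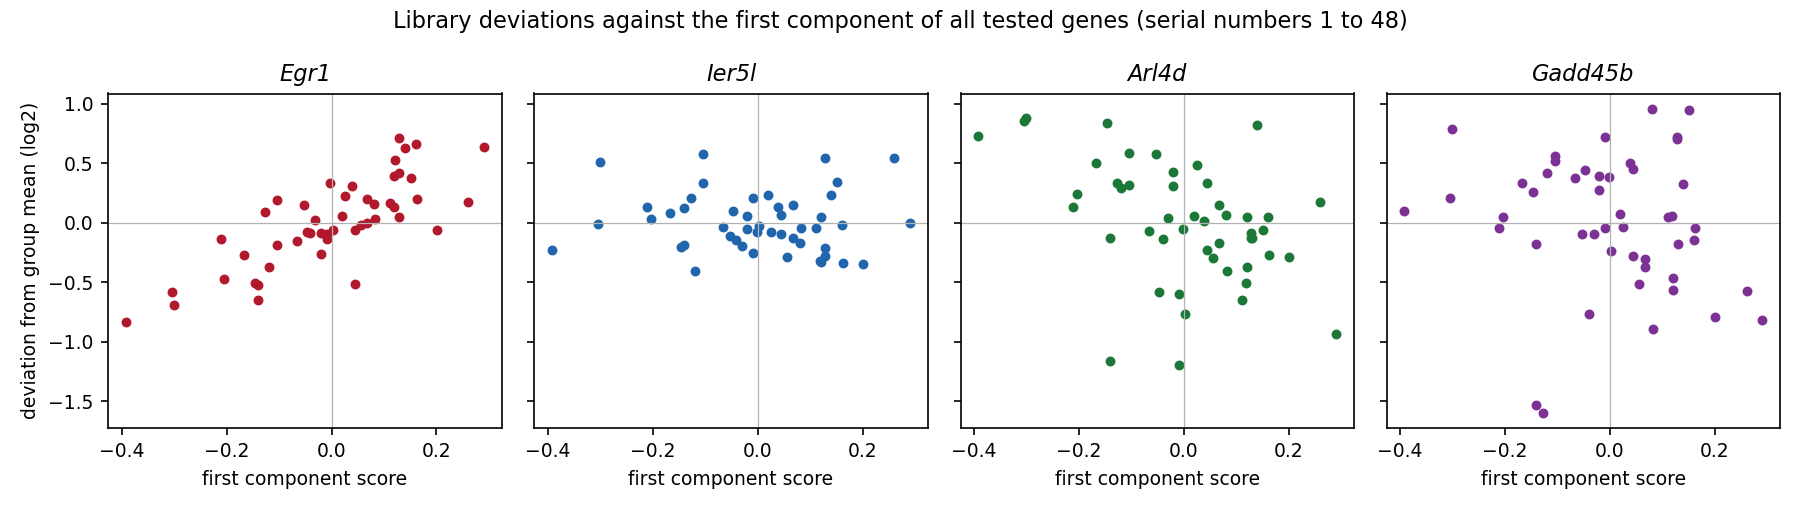
Deviation of each library from its group mean (log2) against the library's score on the first component of all tested genes' deviations, 48 libraries per gene. Egr1 rises with the score (r = 0.79), Arl4d falls (r = -0.45), and Ier5l and Gadd45b show little relation (r = -0.07 and -0.14).

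The genes most like each of the 4 were ranked by Pearson's r among genes with a mean log2 level of at least 6. By library deviations (48 libraries), Egr1 was nearest to Rasa3 (r = 0.83), Mn1 (0.82) and Spock1 (0.81), none of which was called rhythmic. Ier5l was nearest to Insr (0.49), Tango6 (0.47) and Junb (0.47), Arl4d to Lrch1 (0.66), Mrpl22 (0.64) and Nupl1 (0.62), and Gadd45b to Dpm2 (0.57), Med27 (0.56) and Acaca (0.54). By the 12 group means, which carry the time of day, Egr1 was nearest to Srek1 (0.92), Plekhm1 (0.92) and Paxbp1 (0.89), and Ier5l to Ak3l2-ps (0.92), Junb (0.91) and Tsc22d3 (0.90). Ak3l2-ps is a pseudogene, so its reads may belong to a parent gene. Arl4d was nearest to Zfp189 (0.86), Zfp598 (0.85) and Tsc22d3 (0.85), and Gadd45b to Kcnn2 (0.87), Flcn (0.87) and Hes6 (0.84). Tsc22d3, a glucocorticoid-induced leucine zipper gene, was thus near both Ier5l and Arl4d. Between those 2 genes r over the group means was 0.85, which made Ier5l the fourth nearest of 4272 genes to Arl4d, whereas over library deviations it was 0.21. The points of these correlations share libraries and their depth, so they are descriptions.

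The families of the 4 genes were examined next. Their members did not choose the 4, but the lists were made with earlier results of these data known. Of the EGR family and its co-repressors, 2 other genes could be tested. Nab2, a co-repressor of EGR proteins and itself inducible, had an amplitude of 0.21 ± 0.04 (SE) with a peak at ZT16.9 (adjusted p = 0.00362, limma with Benjamini-Hochberg) and was higher in the dark phase by 0.31 ± 0.06 (adjusted p = 0.000643, limma). Egr2, another zinc-finger factor of the family, had a larger but noisier amplitude of 0.58 ± 0.15 at ZT19.1 and missed the threshold (adjusted p = 0.0709, limma). It passed when any 1 of 5 single libraries was left out, at adjusted p of 0.0214 to 0.0496 (limma). In limma voom the amplitude of Egr2 was 0.47 (adjusted p = 0.170). Without the libraries numbered 49 to 60 it was 0.44 (adjusted p = 0.336, limma). The fitted peak of Egr2 lay close to Egr1's at ZT19.5.

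In the families of Ier5l, Arl4d and Gadd45b no other member was called with a dark-phase peak. Ier3, the only other tested gene of the Ier list, had an amplitude of 0.11 ± 0.14 (adjusted p = 0.996, limma). Over all 4273 genes limma called 81 (1.90%), with 486 at an unadjusted p under 0.05. By that share alone, a list as short as those of this paragraph may hold 0 called genes. Of 9 other Arf and Arl GTPases, 0 were called, with 1 at an unadjusted p under 0.05 and a median amplitude of 0.0424, below the 0.0762 of all genes. That one was Arl2, which acts in tubulin folding, at 0.21 ± 0.06 with its peak at ZT10.2, in the light phase (adjusted p = 0.102, limma). Arl4c, a close relative of Arl4d, had 0.05 ± 0.05 (adjusted p = 0.974, limma). Among 4 tested partners of Arl4 proteins, Cyth4, a cytohesin, was called, at 0.50 ± 0.11 with its peak at ZT0.83 (adjusted p = 0.0169, limma). Arl4d's fitted peak was at ZT16.9. Cyth4's dark minus light difference was -0.20 ± 0.17 (SE, adjusted p = 0.877, limma). Cyth3, Pak1 and Arf6 were not called. Of 5 other genes of the Gadd45 and stress kinase list, 0 were called by limma, with 0 at an unadjusted p under 0.05, and Gadd45a had 0.25 ± 0.11 at ZT20.6 (adjusted p = 0.564). limma voom on the recovered reads also called 0 in each of these 3 lists. Of 3 tested genes of DNA methylation and demethylation and 2 of the NF-kappaB pathway, limma and limma voom each called 0, with 0 at an unadjusted p under 0.05 in limma.

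**Figure D5:**
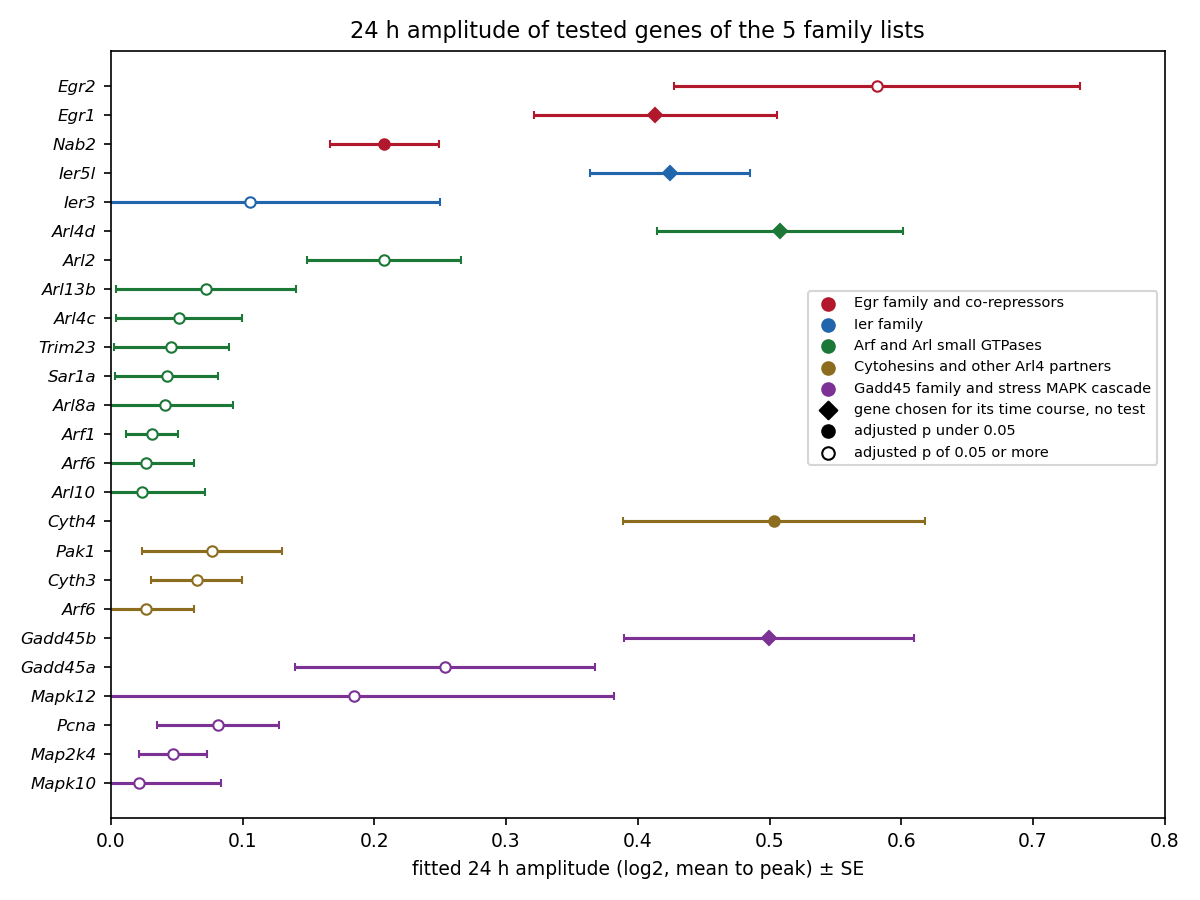
Fitted 24 h amplitude ± SE (log2) of every tested gene of the family lists of the 4 genes, coloured by list; diamonds are the 4 chosen genes, filled circles have an adjusted p under 0.05 and open circles do not, bars are clipped at 0, and Arf6 is in 2 lists. Besides the 4 chosen genes, Nab2 (0.21) and Cyth4 (0.50) are filled, and of the 9 other Arf and Arl GTPases Arl2 (0.21) has the highest amplitude.

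Several other inducible genes had a dark-phase peak that passed the test. The lists of inducible genes were made with earlier results of these data known, so their counts and p-values are not independent of these data. Of 6 tested inducible transcription factors, 3 were called rhythmic, all with a dark-phase peak, against 1.40% of all genes. They were Junb (amplitude 0.48 ± 0.05 at ZT16.3, adjusted p = 1.25e-08), Fos (0.60 ± 0.10 at ZT17.9, adjusted p = 0.000125) and Jun (0.27 ± 0.04 at ZT20.2, adjusted p = 0.000125, limma with Benjamini-Hochberg), subunits of the AP-1 factor. All 6 had a positive dark minus light difference, with a median of 0.27, against -0.000561 over all genes. Of 9 tested effector genes, 3 were called: Arc, a synaptic regulator of AMPA receptors (0.90 ± 0.07 at ZT18.1, adjusted p = 6.02e-16, limma), Per1, a clock gene that light and CREB also induce (0.45 ± 0.05 at ZT14.9, adjusted p = 9.74e-08, limma), and Homer1, a postsynaptic scaffold (0.19 ± 0.05 at ZT22.7, adjusted p = 0.0300, limma). A positive dark minus light difference was found in 7 of the 9 effector genes, among them Homer1 at only 0.04 ± 0.07 (SE, adjusted p = 0.946, limma). Nptx2, a synaptic pentraxin, had a dark minus light difference of -0.38 ± 0.11 (SE, adjusted p = 0.10) and an amplitude of 0.26 ± 0.08 with its peak at ZT5.14 (adjusted p = 0.168, limma). Fitted peaks of the called genes and the 4 genes spread across the dark phase, with Gadd45b and Per1 at ZT14.9, Junb and Ier5l at ZT16.3 and ZT16.5, and Egr1 and Jun at ZT19.5 and ZT20.2.

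Of 8 tested genes that signal to inducible promoters, only Srf was called, at 0.20 ± 0.04 with its peak at ZT22.2 (adjusted p = 0.00839, limma with Benjamini-Hochberg), later than any of the 4 genes. The dark minus light difference of Srf was 0.08 ± 0.06 (SE, adjusted p = 0.852, limma). Creb1, which encodes CREB, had 0.09 ± 0.03 at ZT20.8 (adjusted p = 0.318, limma). Without the libraries numbered 49 to 60, 7 of the 9 called genes of these lists were still called, and Cyth4 (adjusted p = 0.0503) and Homer1 (adjusted p = 0.0647) were not (limma). Homer1 also missed the threshold without ZT10 male replicate 5 alone (adjusted p = 0.0665, limma). With scaling by library totals alone, 2 of the 9 were still called, Arc and Junb.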

How the data were processed

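RNA from 59 homogenates of medial prefrontal cortex was sequenced after Qiagen RNeasy Plus Micro extraction and Takara SMART Stranded Total RNA library preparation, per the labels. The submitters' processing notes name FastQC, HTSeq, DESeq2 and GRCm38, without versions; the aligner, annotation and strand setting are not given in the sources used here. The deposited values, made by the authors, are log2 of read counts that were scaled and raised by 1. In every library the unlogged values minus 1 were whole multiples of 1 step, within 7.08e-06 of a whole number, so whole reads were recovered and used for depth, the filter and some alternatives; 1 read was worth 1.52 to 6.24 scaled units.

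Groups came from the titles. Replicate numbers are the run of 12 serial numbers a library falls in, since number 54 is absent and animal numbers repeat. Positions come from GENCODE M21, and 4465 of 4484 genes had a symbol there. Genes with at least 10 reads in at least 4 libraries were tested with limma 3.58.1 in R 4.3.3, on the deposited log2 values, using limma's trend and robust options, over all 59 libraries. Benjamini-Hochberg adjustment covered the 4273 tested genes, with a threshold of 0.05. The rhythm is a joint test of a 24 h cosine and sine with sex as a covariate. Male minus female had time as a factor, and dark minus light came from the 12 group means. Correlations used deviations from the group mean in libraries 1 to 48, with 100000 permutations within groups; the component, and the alternatives for it, for named genes of the lists and for the sex difference in the dark minus light value, were added after seeing the data. Alternatives were limma voom with trimmed-mean factors, scaling by totals alone, no filter, a pseudocount of 5, the run as a block, and leaving out libraries. Within groups no 2 libraries were copies: over 116 pairs, chi-square divided by its degrees of freedom was never under 10.6. Models were tested on simulated data first. Figures and permutations used Python 3.11.15, numpy 2.4.6, scipy 1.17.1 and matplotlib 3.10.9.

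The 4 genes and all gene lists were chosen with earlier results of these data known. Genes named besides them are the called ones and up to 3 with the smallest p of each family list, up to 4 called ones of each other list, and the 3 most like each gene by each correlation at a mean log2 of at least 6; Arf6, Creb1, Ddx3x, Nptx2, Per2, Per3 and Banp were named after their values were seen.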

Additional observations from a re-analysis of the deposited data

Results flagged for a closer look

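In 3 of the 48 groups of 1 gene, time and sex, a single library stood far from the others of its group, and chance alone flags about 1 group in 20. Egr1 in ZT6 female replicate 5 was at 10.65, above the other 4 libraries, which ran from 10.07 to 10.24. This library is among those numbered 49 to 60, in which Egr1 averaged 11.42 over all times; the part of that run in the value was not tested.

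Ier5l in ZT2 male replicate 4 was at 8.84, above the other 4 libraries, which ran from 8.05 to 8.22. Ier5l in ZT18 male replicate 5 was at 7.83, below the other 4, which ran from 8.81 to 8.95, and this is the dark-phase library that did not exceed the light-phase median. It too is numbered between 49 and 60.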

How the results depend on the processing

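Of the results recomputed under the settings other than single-library omissions, 7 counts moved and 9 values changed sign. Of those that kept their sign, 4 passed and 9 missed a threshold that they had not before. Among those that changed sign, the r of Egr1 with Gadd45b and of the component with Ier5l and with Gadd45b also newly passed with scaling by totals alone. The others kept their direction and, where a test is reported, their call. The amplitudes and dark minus light values of the 4 genes carry no test and moved by less than their residual SD. That is a wide bound, since the residual SD exceeded the amplitude itself for Egr1, Arl4d and Gadd45b. Scaling by totals alone gave amplitudes of 0.43 for Egr1 and 0.39 for Ier5l, in place of 0.41 and 0.42. It gave 0.39 for Arl4d and 0.38 for Gadd45b, in place of 0.51 and 0.50. With libraries scaled by their totals alone, the 24 h rhythm count was 3 in place of 81, the dark minus light count 6 in place of 30, and the male minus female count 0 in place of 1. In that setting the sex difference in the dark minus light value was -0.22 for Ier5l and -0.17 for Arl4d, and the median of all genes shifted to -0.319. The within-group r became 0.66 for Egr1 with Ier5l, 0.31 for Egr1 with Arl4d, 0.44 for Egr1 with Gadd45b, 0.59 for Ier5l with Arl4d, 0.58 for Ier5l with Gadd45b and 0.55 for Arl4d with Gadd45b. With the first component it became 0.83 for Ier5l, 0.55 for Arl4d and 0.59 for Gadd45b, in a setting where 99.7% of all genes correlated positively with it. Without the libraries numbered 49 to 60 the rhythm count was 50 and the dark minus light count 13, with fewer samples. Libraries of the same run in different groups had a mean correlation of 0.107 (-0.494 to 0.601 over 319 pairs, 148 of them over 0.1) and those of different runs -0.026; 26 of 59 libraries correlated best with their own run. Since not every same-run pair exceeded 0.1 and the labels call the runs no batches, the runs were not taken as pairs. That bar is strict, and missing it does not show that libraries of a run were unrelated. An effect of the run was not itself tested. The main fits and the main within-group permutations did not include the run, and the replicate block is the setting that did. With the replicate block the rhythmic genes with a dark-phase peak were 82 in place of 60, the dark minus light count was 46, and the male minus female count 2; r of Egr1 with Gadd45b was 0.15 and r of Gadd45b with the component 0.037. Leaving out each library in turn gave 74 to 96 rhythmic genes, 25 to 38 for dark minus light, 1 for male minus female and 0 for the other 3 counts. It gave male minus female values from -0.14 to -0.05 for Egr1, -0.15 to -0.10 for Ier5l, 0.04 to 0.14 for Arl4d and -0.10 to 0.041 for Gadd45b, which changed sign in 5 of 59. For the sex difference in the dark minus light value it gave -0.47 to -0.30 for Egr1, 0.11 to 0.21 for Ier5l, 0.023 to 0.26 for Arl4d and -0.27 to -0.060 for Gadd45b. The r of Egr1 ranged from -0.019 to 0.18 with Ier5l, -0.37 to -0.13 with Arl4d and -0.15 to 0.055 with Gadd45b, and the component's r with Ier5l from -0.21 to 0.056. Under voom the amplitude has no SE. Depth limits Arl4d and Gadd45b most, with medians of 38 and 33 reads per library.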
